A study of Mus musculus with 15 samples.

Results

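The genes described here are 10 genes of iron storage, transport and control in mouse liver: Fth1, Ftl1, Tfrc, Tfr2, Trf, Slc40a1, Hamp, Ireb2, Aco1 and Slc11a2. They were chosen by name, and every RefSeq transcript in the files with 1 of these symbols was taken, which gave 14 transcripts of 10 genes, out of 28167 transcripts of 20101 named genes. Tfr2 has 4 transcripts, Slc11a2 has 2 and the others have 1 each. Values are given for the transcript with the most reads. Ribosome profiling, which sequences the short pieces of mRNA that a ribosome shields from nuclease, was performed on whole liver of wild-type male C57BL/6N mice aged 8 to 10 weeks. The animals were kept for 2 weeks in cycles of 12 h light and 12 h dark and then moved to constant darkness. Sampling began 24 h later and ran every 4 h over 7 circadian times (CT) from CT0 to CT24, with 2 livers at each time and 14 libraries in all. All groups share genotype, strain, sex and housing and differ in time alone. The p-values of the cosine fits rest on the spread of these single livers about the fitted curve. That spread holds both differences between livers and departures of a time mean from a cosine.

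Iron inside a cell is held in ferritin, a shell built of heavy chains (Fth1) and light chains (Ftl1). Iron enters bound to transferrin (Trf) through the transferrin receptor (Tfrc) and leaves through ferroportin (Slc40a1), which the liver hormone hepcidin (Hamp) removes from the cell surface. The iron regulatory proteins Aco1 (IRP1) and Ireb2 (IRP2) bind a hairpin called the iron-responsive element (IRE) when iron is scarce. Binding in a 5′UTR blocks translation, and binding in the 3′UTR of Tfrc protects the mRNA from decay.

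The elements were searched in the transcripts, since the comparison of 5′UTR genes with Tfrc rests on them. The core sought was an unpaired C, 5 bases of stem, the loop CAGTGN, where N is any base, and the 5 bases of the other side of the stem. It was sought on the transcript strand, with at most 1 of the 5 pairs missing and G-T pairs allowed. An element that departs further from this core would not be found. In the 5′UTR, 144 of 21703 sequences held such a core (0.6635%), and 24 held a core with all 5 pairs (0.1106%). In the 3′UTR, 808 of 22143 held a core (3.649%), and 123 held it with all 5 pairs (0.5555%). The sequences of the 5′UTR elements are shown with the unpaired C and the loop in capitals, from GRCm38.p6 (the mm10 assembly) with RefSeq transcripts:
Fth1, chr19:9982732-9982761, plus strand, exon 1: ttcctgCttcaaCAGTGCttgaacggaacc
Ftl1, chr7:45459778-45459807, minus strand, exon 1: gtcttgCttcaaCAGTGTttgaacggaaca
Slc40a1, chr1:45925464-45925493, minus strand, exon 1: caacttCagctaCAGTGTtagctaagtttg

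In all 3, the 5 stem pairs were complete. The unpaired C lay 132 nt before the coding sequence in Fth1, 170 nt before it in Ftl1 and 224 nt before it in Slc40a1. The 2 ferritin elements have the same 5 bases on each side of the loop. Tfrc held 4 cores in its last exon, exon 19, and was the only one of the 22143 3′UTRs with 3 or more. They are shown 5′ to 3′ in their order along the 3′UTR, with capitals as above:
Tfrc, chr16:32631219-32631248, plus strand: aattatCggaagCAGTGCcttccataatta
Tfrc, chr16:32631598-32631627, plus strand: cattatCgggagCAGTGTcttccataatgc
Tfrc, chr16:32631663-32631692, plus strand: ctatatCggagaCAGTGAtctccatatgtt
Tfrc, chr16:32631710-32631739, plus strand: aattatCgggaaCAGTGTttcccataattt

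Slc11a2 (DMT1), which carries ferrous iron across membranes, has transcripts with different last exons, and only NM_001146161 held a core in its 3′UTR, with 1 of 5 pairs missing:
Slc11a2, chr15:100395152-100395181, minus strand, exon 16: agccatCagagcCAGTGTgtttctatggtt

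No core was found in NM_008732, the other transcript of Slc11a2, in Trf, Ireb2 or Aco1, or in the 3 transcripts of Tfr2 that were searched. Hamp and NM_001289507 of Tfr2 were not searched, because a region length in the files differed from the annotation by more nucleotides than the transcript has exons, the tolerance used for a match.

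The libraries held between 40593197 and 90458783 counts (median 56446208). Transcripts of the major urinary proteins (Mup) took 34.2% to 57.6% of them, so counts were scaled by trimmed mean (TMM) factors, which ran from 0.736 (CT12 replicate 2) to 1.46 (CT0 replicate 1). Values scaled this way are written CPM, the counts in 1000000 counts of the scaled library. In CT16 replicate 2, 100% of the counts above 0 were even numbers, against 48.9% to 50.4% elsewhere. Pancreatic acinar markers (9 of 10 found, all 9 with a mean of 10 or more counts) summed to 3425 CPM in CT20 replicate 2 and to between 2.55 and 69.3 in the other libraries. The 7 hepatocyte markers summed to between 35310 and 49979 CPM.

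The 10 genes spanned a wide range of footprint density on the coding sequence (CDS), given as CPM per kilobase (RPKM), mean ± SD over 14 libraries. Trf, the plasma iron carrier made by hepatocytes, stood highest at 2938 ± 451, above 99.8% of the 17299 transcripts tested. Hamp followed at 668 ± 279. Fth1 had 94.0 ± 33.3 and Tfr2, the hepatocyte sensor of iron-loaded transferrin, 73.9 ± 4.84. Aco1 had 48.6 ± 6.39 and Ftl1 41.5 ± 14.5. Slc40a1 had 12.4 ± 2.62. Tfrc had 6.74 ± 2.67, Ireb2 6.18 ± 0.928 and Slc11a2 5.61 ± 1.03, against a median of 2.29 over all transcripts tested.

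**Figure D1:**
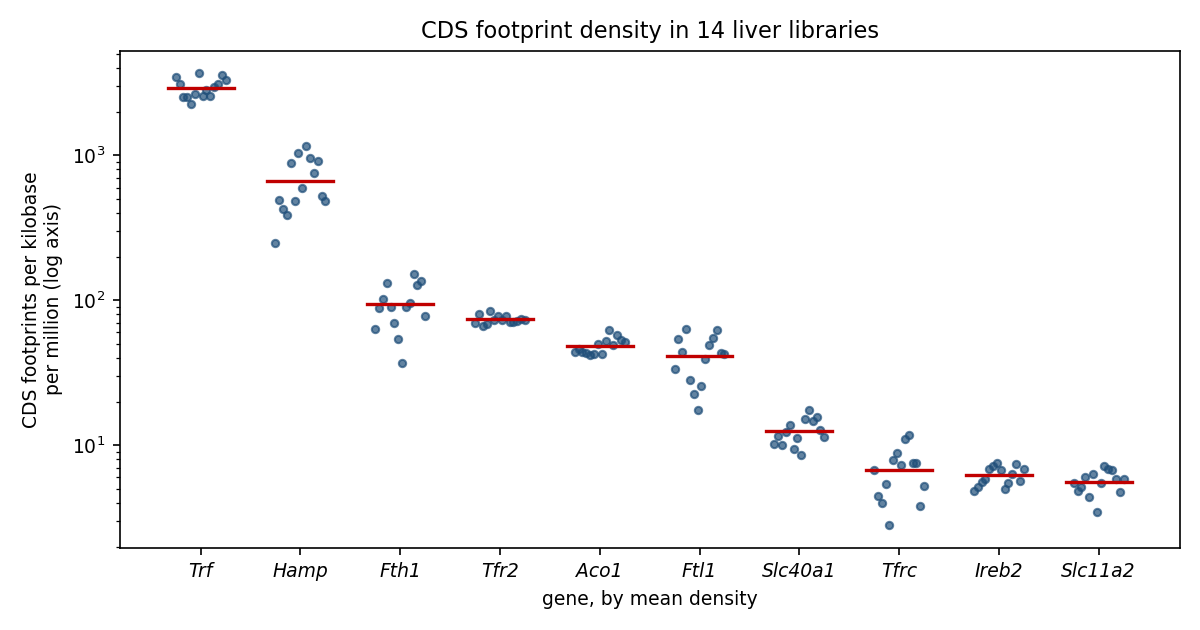
CDS footprint density of the 10 genes (RPKM, log axis) in each of 14 libraries (points) with the mean (red bar), ordered by mean. Trf and Hamp stand above the other 8 genes in every library, and Tfrc, Ireb2 and Slc11a2 overlap at the lower end.

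Some neighbours in this order could not be separated. Fth1 was above Tfr2 in 10 of 14 libraries, and Aco1 above Ftl1 in 9. Tfrc was above Ireb2 in 8 of 14, and Ireb2 above Slc11a2 in 9. Each of the other 5 steps of the order held in 14 of 14 libraries. The members also differed in spread. The highest library exceeded the lowest by 4.62-fold for Hamp, 4.08-fold for Tfrc, 3.90-fold for Fth1 and 3.34-fold for Ftl1. For Tfr2 this ratio was 1.26, for Aco1 1.49 and for Ireb2 1.51.

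Time of day was tested with a cosine of period 24 h by the quasi-likelihood test of edgeR. Of all 17299 transcripts tested, 1947 passed an adjusted p of 0.05, which is 11.3% of them. These are not all independent, since transcripts of one gene share reads, and with 1 transcript per gene 1251 of 11747 passed. All 10 genes passed the filter of a mean of 10 counts, and 3 of 10 passed the test: Hamp, Tfrc and Ftl1. The other 7 did not. With JTK_CYCLE, a rank test for rhythms, and Benjamini-Hochberg adjustment over all transcripts, none of the 10 genes passed, whether on counts scaled by the library total (384 transcripts called) or on TMM-scaled values (637). Before that adjustment, 5 of the 10 genes had a JTK_CYCLE P under 0.05 on total-scaled counts (Hamp, Tfrc, Ftl1, Trf and Slc11a2) and 3 on TMM-scaled values (Hamp, Tfrc and Aco1), where Ftl1 was at 0.126. The median fitted difference between peak and trough was 0.48 on the log2 scale over the 10 genes and 0.44 over all transcripts tested. In bulk liver, fewer cells of a type and less RNA per cell cannot be told apart, and footprints do not separate the amount of an mRNA from its translation.

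**Figure D2:**
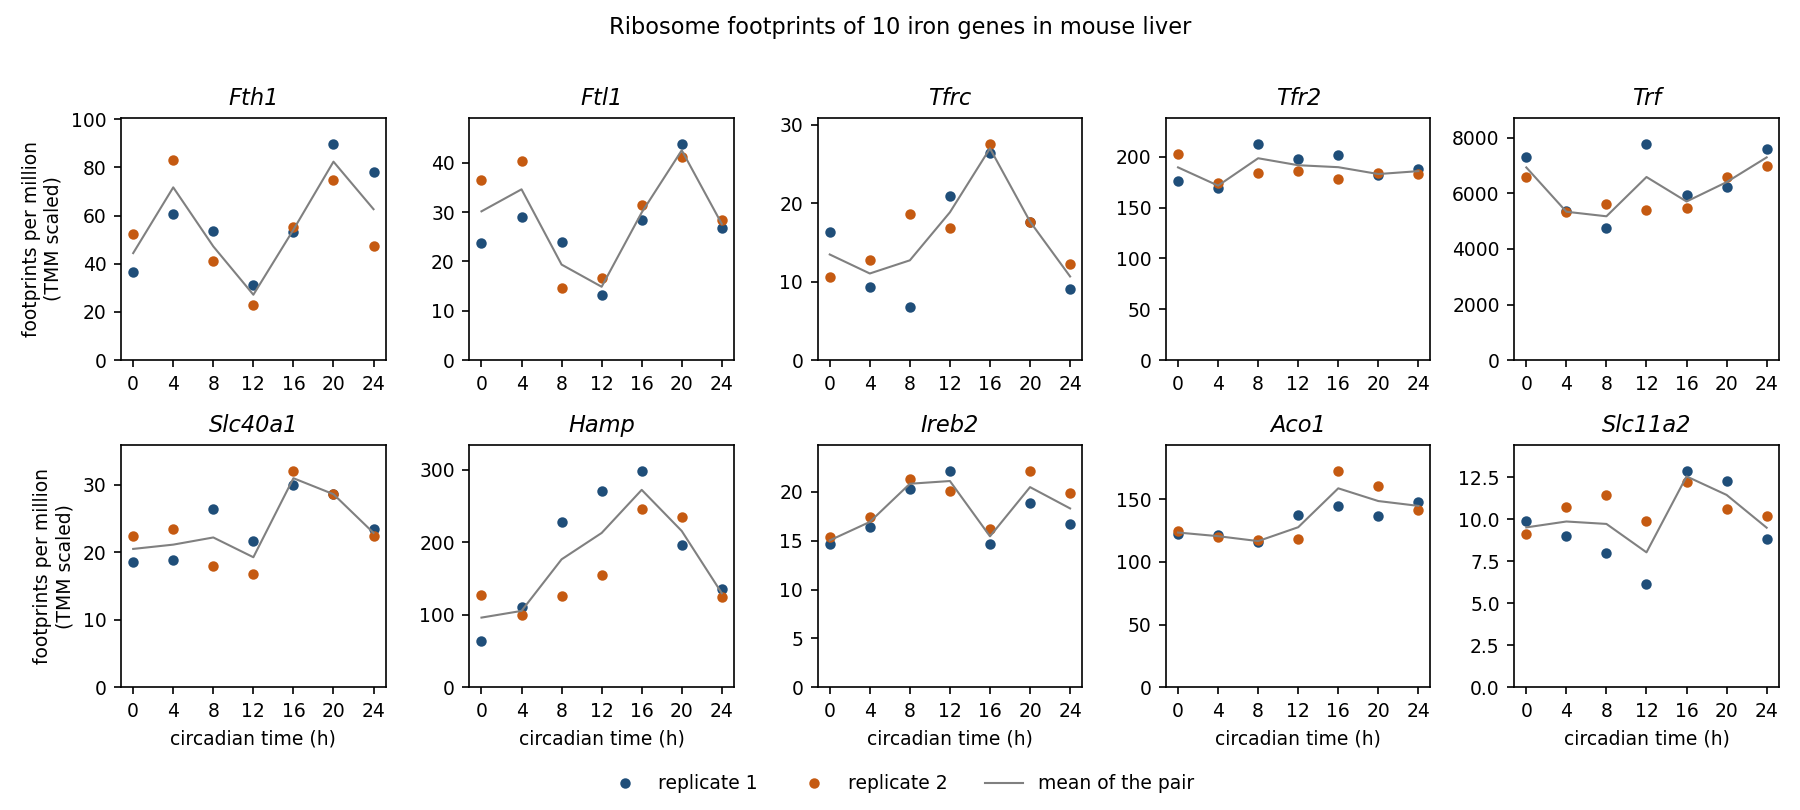
Footprints in CPM (TMM scale, axes from 0) of each gene against circadian time in hours. Points are the 2 livers of a time and the grey line joins their means. Tfrc and Hamp are highest at CT16, and both ferritin chains are lowest at CT12 and highest at CT20.

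Hamp, the hormone that sets iron export, had the largest fitted difference of the 10 genes. In CPM its footprints were 64.5 and 128 at CT0, 110 and 100.2 at CT4, and 228 and 125 at CT8. They were 271 and 155 at CT12, 298 and 246 at CT16, 196 and 235 at CT20, and 135 and 124 at CT24. The CT16 livers gave the highest and the third highest value of the 14, and no liver of CT0, CT4 or CT24 reached the lowest liver of CT12, CT16 or CT20. The fitted peak lay at CT14.8 ± 0.84 h (SE), with a log2 difference of 1.41 ± 0.31 between peak and trough, or 2.65-fold (edgeR adjusted p = 0.00238). Hamp passed under 35 of 37 alternatives and not with JTK_CYCLE after adjustment over transcripts (0.167 on total-scaled and 0.0573 on TMM-scaled values), in a range of 4.59e-07 to 0.167. Hamp2, a near-identical neighbouring gene, had a fitted peak at CT21.0 and a difference of 1.11 ± 0.46 that did not pass (adjusted p = 0.130). The methods name uniquely placed reads for the density profiles, and do not say whether the deposited counts were made from the same reads.

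Tfrc, the entry receptor, had its highest values in the same part of the cycle. In CPM its footprints were 16.4 and 10.6 at CT0, 9.33 and 12.8 at CT4, and 6.77 and 18.7 at CT8. They were 20.9 and 16.9 at CT12, 26.4 and 27.6 at CT16, 17.7 and 17.7 at CT20, and 9.05 and 12.3 at CT24. The CT16 livers were above all 12 others, and those of CT8 differed more than those of any other time. The fitted peak was CT15.7 ± 0.87 h, with a difference of 1.25 ± 0.32, or 2.38-fold (edgeR adjusted p = 0.00615). The call held in each fit that left out 1 library and was lost without both CT16 livers (0.137) and with time as 7 separate levels (0.0779) or 6 (0.0520). JTK_CYCLE gave adjusted values of 0.116 and 0.160 on the total and TMM scales, and the range over 37 alternatives was 4.66e-05 to 0.160. With the CT16 replicate 2 counts divided by 2, the adjusted p of Tfrc was 0.00633. Library scaling removes a factor common to all counts of a library, so this fit could hardly change the call.

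Erythroid cells are rich in Tfrc, so their markers were set beside it. Of 10 erythroid markers, 8 were found, 7 of them with a mean of 10 or more counts. Alas2 among them is also in the iron lists. Their sum ranged from 57.1 to 118 CPM and was highest at CT4 (mean 99.9) and lowest at CT16 (62.4), where Tfrc was highest. The 8 Kupffer cell markers, all with a mean of 10 or more counts, summed to between 78.1 and 137 CPM, and the 7 sinusoidal endothelial markers to between 104 and 165. Both sums were also lowest at CT16, at 92.2 and 116 CPM. The part of erythroid, Kupffer or endothelial cells in the values of Tfrc and Hamp was not tested.

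Ftl1, the light chain of ferritin, had its low point at CT12. In CPM its footprints were 23.7 and 36.6 at CT0, 29.0 and 40.3 at CT4, and 24.04 and 14.7 at CT8. They were 13.1 and 16.6 at CT12, 28.4 and 31.4 at CT16, 43.8 and 41.2 at CT20, and 26.8 and 28.4 at CT24. The CT20 livers were the highest of the 14, and both CT12 livers lay below every liver of CT0, CT4, CT16, CT20 and CT24. The fitted peak was CT22.0 ± 1.2 h, with a difference of 1.04 ± 0.31, or 2.06-fold (edgeR adjusted p = 0.0327). Scaled by the total count instead, Ftl1 was again lowest at CT12, while its highest mean stood at CT0.

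The Ftl1 call rested on several single libraries. It was lost without CT0 replicate 2 (0.0584), CT8 replicate 2 (0.103), CT12 replicate 1 (0.0952), CT12 replicate 2 (0.0980), CT20 replicate 1 (0.0663) or CT20 replicate 2 (0.0565), the library with pancreatic reads. Over 37 alternatives the adjusted p of Ftl1 ran from 0.00187 to 0.456, with 26 of them under 0.05. Without CT20 replicate 2, therefore, 2 of 10 genes were called, Hamp and Tfrc, with 1848 transcripts called in all.

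Fth1, the heavy chain that oxidises the iron it stores, did not pass (edgeR adjusted p = 0.167). In CPM its footprints were 36.6 and 52.2 at CT0, 60.5 and 82.9 at CT4, and 53.4 and 41.0 at CT8. They were 31.3 and 23.0 at CT12, 53.1 and 55.2 at CT16, 89.8 and 74.9 at CT20, and 78.1 and 47.2 at CT24. Both CT12 livers were the lowest of the 14, and high values stood at CT4 as well as CT20. With time as 7 separate levels the adjusted p was 0.00780, and with the total count as scale the cosine gave 0.0358. It also passed without CT0 replicate 1 (0.0499), and in all under 6 of 37 alternatives, in a range of 0.00780 to 1. The ferritin values carry a limit, since the RefSeq table lists 2 Fth1 and 3 Ftl1 pseudogenes by symbol, and whether the deposited counts hold only uniquely placed reads is not stated.

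The balance of heavy and light chains was followed within each library. The Fth1 to Ftl1 ratio of CDS reads per nucleotide ranged from 1.43 (CT12 replicate 2) to 3.15 (CT24 replicate 1), with a median of 2.19. The 2 livers of CT8 gave 3.14 and 3.09, and those of CT0 gave 1.90 and 1.63. At CT12 the livers were 3.10 and 1.43, which nearly spans the whole range.

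Slc40a1, the only exporter of the set, had its highest values at CT16 (29.9 and 32.1 CPM) and CT20 (28.6 and 28.6). These 4 livers were above the other 10, which ran from 16.9 (CT12 replicate 2) to 26.5 (CT8 replicate 1). The fitted peak was CT17.8 ± 1.2 h, with a log2 difference of 0.53 ± 0.20, and did not pass (edgeR adjusted p = 0.136). Without CT8 replicate 1 the adjusted p was 0.0393, in a range of 0.0393 to 0.898 over 37 alternatives.

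Among the regulators, Aco1 gave 145 and 172 CPM at CT16 and 137 and 160 at CT20, against 115 and 118 at CT8. Its difference was 0.43 ± 0.098 with a peak at CT18.2 ± 0.78 h (edgeR adjusted p = 0.0589). Aco1 passed with DESeq2 (0.0144), with a minimum mean of 100 counts (0.0390) and without CT20 replicate 1 (0.0441), in a range of 0.0144 to 0.342. Ireb2 ranged from 14.7 to 22.1 CPM with a median of 18.1, and did not pass (adjusted p = 0.564).

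Tfr2 varied least of the 10 genes on the TMM scale, though not with the total count as scale, where its highest time mean was 1.63 times its lowest and that of Ireb2 1.23 times. It ranged from 169 to 213 CPM, with a median of 184 and a difference of 0.081 ± 0.069 (edgeR adjusted p = 0.853). Tfr2 and Tfrc bind the same ligand, transferrin, and the fitted difference of Tfrc was 1.25 on the same scale. Trf itself ranged from 4745 to 7782 CPM with a median of 6093 (0.32 ± 0.15, adjusted p = 0.379). Without CT12 replicate 1, its highest library, Trf passed (0.0437), in a range of 0.0437 to 1. Slc11a2 ranged from 6.17 to 12.9 with a median of 10.0 (0.34 ± 0.22, adjusted p = 0.478).

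The next comparison set the genes with a 5′UTR element against Tfrc within each library, which needs no scaling between libraries. Of CDS reads per nucleotide, the Fth1 to Tfrc ratio was 9.39 and 19.9 at CT0, 25.7 and 24.2 at CT4, and 31.8 and 8.73 at CT8. It was 6.09 and 5.07 at CT12, 8.19 and 8.13 at CT16, 20.2 and 16.9 at CT20, and 35.7 and 15.0 at CT24. All 4 livers of CT12 and CT16 were below the other 10. The cosine peaked at CT1.96 ± 1.2 h with a log2 difference of 1.72 ± 0.52, or 3.30-fold (permutation test over time labels, p = 0.0282, adjusted over 3 ratios 0.0423).

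**Figure D3:**
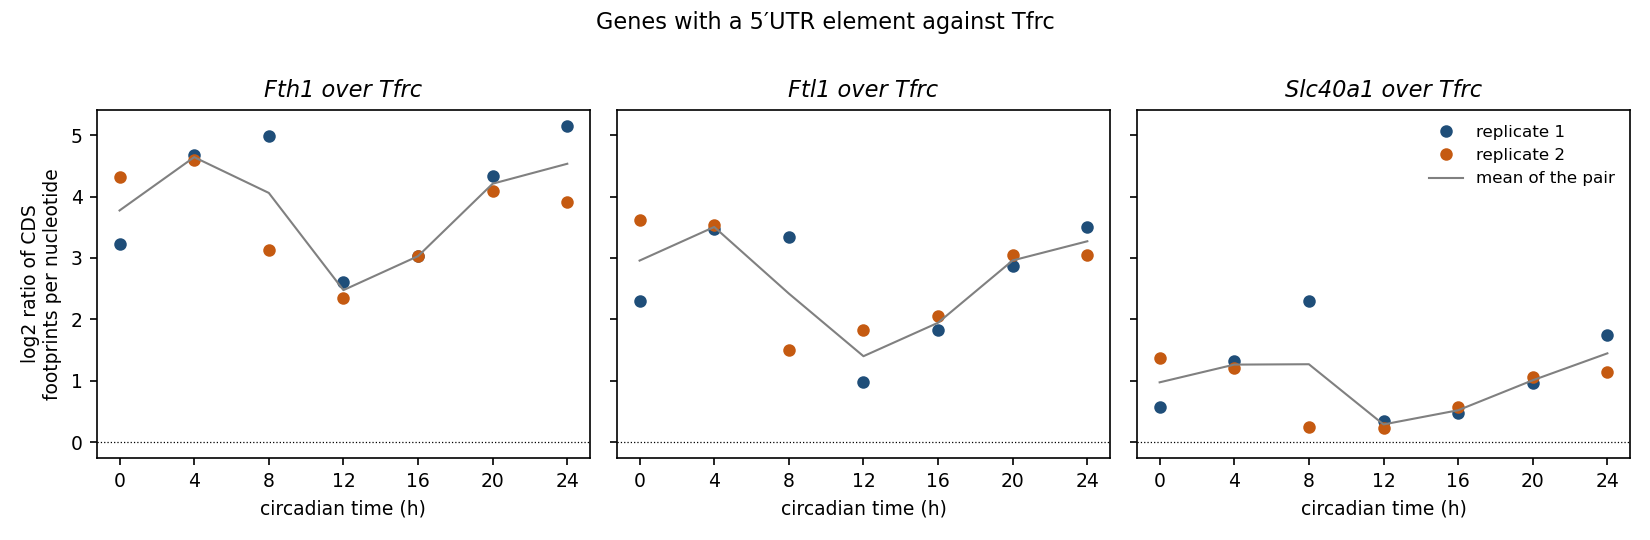
Log2 ratio of CDS footprints per nucleotide of Fth1, Ftl1 and Slc40a1 over Tfrc against circadian time in hours. Points are livers, grey lines join the means of the pairs and the dotted line marks equal density. All 3 mean lines are lowest at CT12, and the 2 livers of CT8 lie far apart.

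The Ftl1 to Tfrc ratio was 4.94 and 12.2 at CT0, 11.04 and 11.7 at CT4, and 10.1 and 2.83 at CT8. It was 1.96 and 3.54 at CT12, 3.56 and 4.15 at CT16, 7.30 and 8.28 at CT20, and 11.3 and 8.23 at CT24. CT8 replicate 2 fell among the livers of CT12 and CT16, while CT8 replicate 1 stood with those of CT4. The cosine peaked at CT1.29 ± 1.0 h with a difference of 1.78 ± 0.44, or 3.44-fold (permutation p = 0.00949, adjusted 0.0285).

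For Slc40a1 over Tfrc, both values at CT12 were low, at 1.26 and 1.18, and those of CT8 were 4.91 and 1.18. The range over 14 livers was 1.18 to 4.91 with a median of 2.01. The difference of 0.93 ± 0.41 did not pass (permutation p = 0.120, adjusted 0.120). Tfrc is the denominator of all 3 ratios and was itself rhythmic, so they are not independent of each other or of its own test.

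Both calls depended on single livers. For Fth1 the adjusted permutation p was above 0.05 without CT0 replicate 2 (0.0620), CT4 replicate 1 (0.0743), CT4 replicate 2 (0.0724), CT12 replicate 1 (0.0983), CT12 replicate 2 (0.110), CT16 replicate 1 (0.0742), CT16 replicate 2 (0.0748), CT20 replicate 2 (0.0523) or CT24 replicate 1 (0.0814). For Ftl1 it was above 0.05 without CT0 replicate 2 (0.0620), CT4 replicate 1 (0.0534), CT4 replicate 2 (0.0531), CT12 replicate 1 (0.0917) or CT24 replicate 1 (0.0610). Without CT8 replicate 1 all 3 ratios passed, each at 0.00775.

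Reads in the UTRs were compared with those of the CDS per nucleotide, as a mean of log2 ratios over 14 libraries. In the 5′UTR, Slc11a2 had -0.56 ± 0.62, Tfr2 -0.97 ± 0.17, Slc40a1 -0.97 ± 0.47 and Ftl1 -1.16 ± 0.63, all above the median of -1.57 over 16272 transcripts. For Tfr2 this holds for the transcript used, NM_001289509, which led NM_015799 and NM_001289511, of equal CDS reads, by its 5′UTR reads. In every library NM_015799 was also above that median. NM_001289511 (at most -2.13, CT0 replicate 2) and NM_001289507 (at most -3.31, CT0 replicate 1) were below it in every library. Tfrc had -1.96 ± 1.03, Aco1 -2.27 ± 0.39, Ireb2 -2.51 ± 1.32, Fth1 -2.66 ± 0.57 and Hamp -3.72 ± 0.55. Trf had -8.07 ± 0.57, lower than in all but 0.787% of transcripts. The 3 genes with a 5′UTR element thus lay on both sides of the median, Fth1 at the 30.0th percentile, Ftl1 at the 59.6th and Slc40a1 at the 64.4th.

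**Figure D4:**
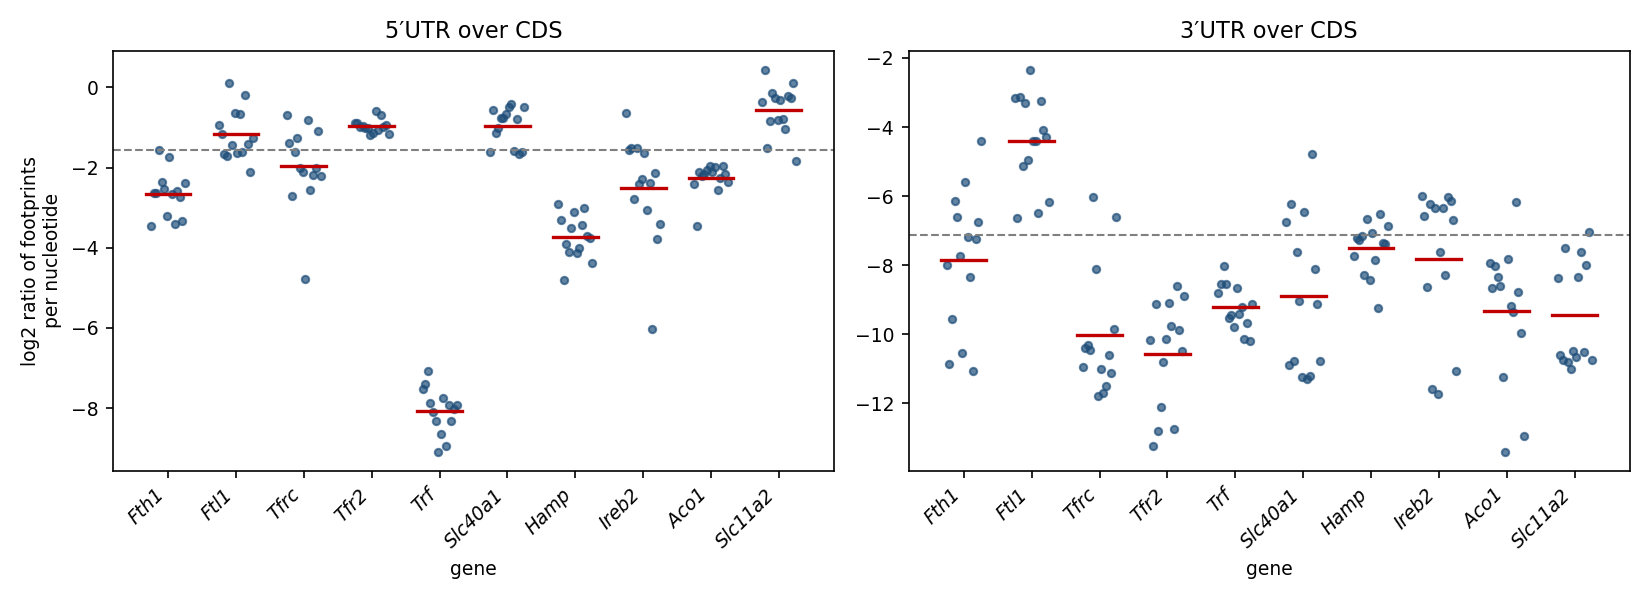
Log2 ratio of footprints per nucleotide in the 5′UTR (left) and 3′UTR (right) over the CDS, with a pseudocount of 0.5, in 14 libraries (points) with the mean (red bar) and the median over all transcripts (dashed line). Trf is lowest in the 5′UTR and Ftl1 highest in the 3′UTR.

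As a share of 5′UTR and CDS reads, the 5′UTR held 17.8% ± 6.78 in Ftl1, 9.21% ± 2.54 in Slc40a1 and 6.39% ± 2.51 in Fth1. It held 2.08% ± 1.13 in Tfrc (SD, n = 14). A 24 h cosine was also fitted with limma to the 5′UTR over CDS ratio of reads, and 0 of 7640 transcripts passed (0%), while 377 (4.93%) had an unadjusted p under 0.05. None of the 10 genes passed, and Trf was the only member with an unadjusted p under 0.05 (0.0233, adjusted 0.809).

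The 3′UTR held few reads, with a median log2 ratio of -7.14 over 16933 transcripts. Ftl1 had -4.41 ± 1.34, at the 85.4th percentile, from 327 reads over all libraries. Tfrc, in whose 3′UTR of 2458 nt the search found 4 cores, had 19 reads in 14 libraries and was at 0 in 11 of them. Its ratio of -10.03 ± 1.83 depends on the pseudocount of 0.5. Tfr2 had 51 reads there and Slc40a1 67.

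The transcripts of Tfr2 and Slc11a2 share most of their sequence. In Tfr2, CDS reads were 150882 in 3 transcripts and 151382 in NM_001289507, while 5′UTR reads were 7182 for NM_001289509, 6089 for NM_015799, 419 for NM_001289511 and 165 for NM_001289507. For Slc11a2, the transcript with the element had 7848 CDS and 20 3′UTR reads, and the transcript without it 7810 and 13, so the counts do not tell apart which form was read. None of these other transcripts passed the time test (adjusted p from 0.469 to 0.856).

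Around the 10 genes, 54 further iron genes in 6 lists were tested in the same fit by their transcript with the most reads, and 6 of the 48 that passed the filter were called, beside 11.3% of all transcripts. Their median difference was 0.46. Among importers and reductases, 2 of 6 passed: Slc39a14 (ZIP14), which takes up iron not bound to transferrin, peaked at CT12.8 (0.83 ± 0.12, adjusted p = 0.000504), and the ferrireductase Steap4 at CT12.3 (0.89 ± 0.16). Among genes with other elements or control of the regulatory proteins, 1 of 4 passed: Epas1 (HIF-2α), a hypoxia-responsive transcription factor, peaked at CT13.9 (0.50 ± 0.13). The search found no core in the UTRs of Epas1, which does not exclude an element of another form. Among 18 genes of hepcidin control, only Hjv (hemojuvelin), a co-receptor that raises hepcidin, passed, with its peak at CT23.9 (0.91 ± 0.23), when Hamp was near its lowest values. Of 7 carriers and scavengers, 2 passed: Lcn2 peaked at CT10.5 (1.74 ± 0.64, adjusted p = 0.0494) and Heph at CT5.14 (1.71 ± 0.45), both low in reads. The other 3 transcripts of Heph did not pass (0.0670, 0.0670 and 0.0788). A transcript of Slc39a8 with fewer reads, NM_026228, passed as well (0.0464), while that with the most did not (0.0629). None of 10 mitochondrial iron genes and none of 3 chaperone and ferritinophagy genes passed by edgeR.

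**Figure D5:**
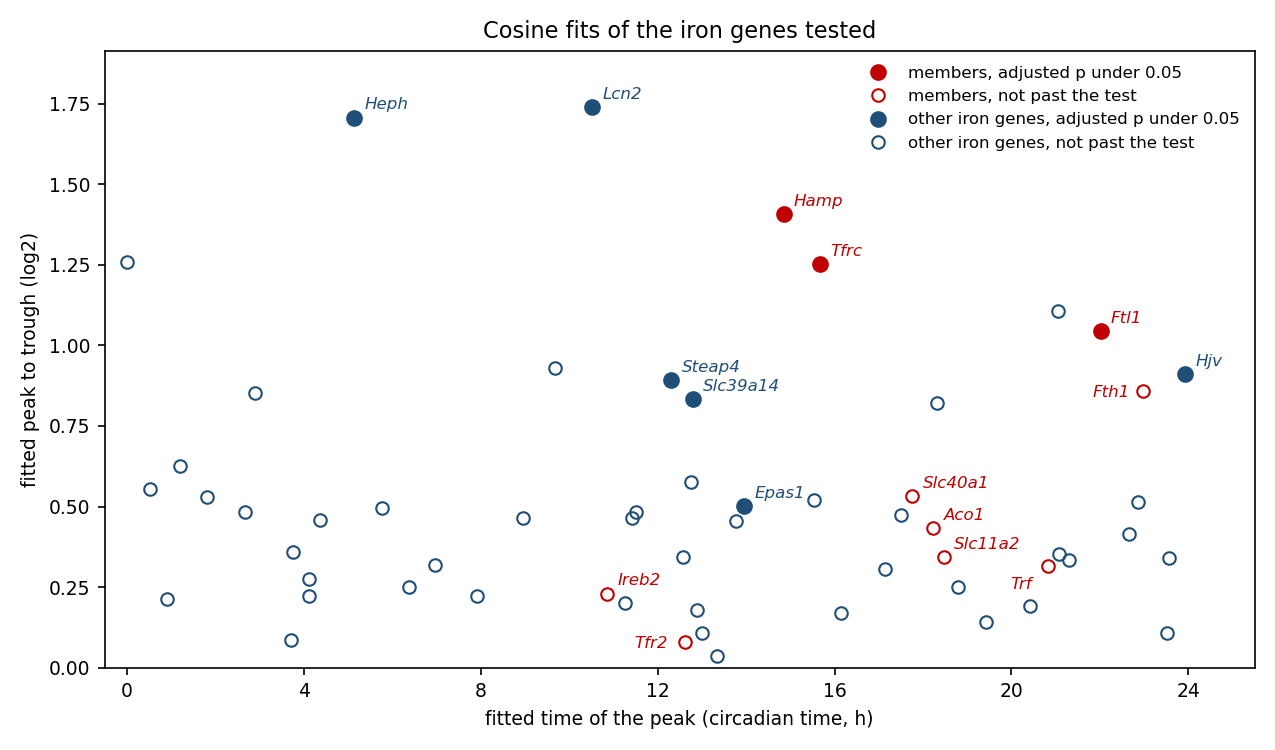
Fitted peak time (circadian hours) against fitted peak-to-trough difference (log2) of the iron genes tested. Filled points passed an adjusted p of 0.05 and red points are the 10 genes. Hamp and Tfrc lie close together between CT14 and CT16, and Ftl1 and Fth1 between CT22 and CT23.

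The genes whose log2 values over the 14 libraries were most like Tfrc, among 11940 transcripts of other genes with a mean of 100 counts or more, were Mbnl2 (Pearson r = 0.87), Rrm2 (0.85) and Srprb (0.84). Most like Ftl1 were Afmid (0.93), Tmem150a (0.93) and Ebp (0.89). These are descriptions over 14 libraries that share the same scaling factors.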

How the data were processed

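Per the labels, ribosome-protected RNA from whole liver was sequenced, and the submitters' processing notes name FastQC, Bowtie2 2.1.0.0, SAMtools 0.1.19.0 and the build mm10. For each of 14 libraries the authors deposited 1 file of raw counts of reads by region of a RefSeq transcript (5′UTR, CDS, 3′UTR), with the region lengths. The methods name uniquely placed reads for density profiles. Whether these counts use the same filter is not given in the sources used here. Of 3084 genes with 2 or more transcripts at a mean of 10 or more counts, 1443 had at least 2 with the same CDS count in every library, so reads on shared exons enter the count of each transcript and library totals hold them more than once. A second run is listed for CT16 replicate 2 and was not analysed here. For the last pair the sample labels give both CT24 and CT00, and CT24 was used.

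The counts of the 3 regions were added. Symbols came from RefSeq and matched 27840 of 28167 transcripts. Those with 10 or more counts on average were tested with edgeR 4.0.16 (R 4.3.3), TMM scaling and Benjamini-Hochberg adjustment over all of them. Phases come from edgeR and standard errors from a least-squares fit. For the balance of 5′UTR and CDS, log2 ratios (pseudocount 0.5, 10 or more counts on average in both) were tested with limma 3.58.1. Ratios to Tfrc were tested with 100000 shuffles of the time labels (Python 3.11.15, numpy 2.4.6, scipy 1.17.1). UTR percentiles used transcripts with a mean of 10 CDS counts and a UTR of 20 nt. Alternatives included DESeq2 1.42.0, JTK_CYCLE with and without adjustment over transcripts, other scalings, filters, blocks, and each library or time point left out. Both model fits were tested on simulated data.

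The genes, the lists and the rule for naming genes were chosen with earlier results of these data known. The rule names all 10 genes, any other iron gene past an adjusted p of 0.05 up to 20 genes, and the 3 genes most like Tfrc and Ftl1. Intervals rest on 2 livers per time. No table of protein sequences was used here. In the other lists, 1 iron gene and 1 erythroid marker are not reported here.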

Additional observations from a re-analysis of the deposited data

How the results depend on the processing

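Hamp kept its call under 35 of 37 alternatives with p adjusted over transcripts, Tfrc under 32 and Ftl1 under 26, and in the 33 alternatives that give a fitted peak, that of these 3 genes moved by less than 6 h. Of the 10 genes, 0 were called with JTK_CYCLE adjusted over transcripts on either scale, an alternative chosen after seeing the data. The number was 5 with JTK_CYCLE on total-scaled counts without that adjustment, and 4 with DESeq2 or with the total count as scale. The number of transcripts called was 1947, and it was 1251 with 1 transcript per gene, 1225 with time as 7 levels, 1159 without both CT8 livers, 1059 without both CT12 livers, 3840 with JTK_CYCLE on total-scaled counts and 3069 on TMM-scaled values, or 384 and 637 after adjustment over transcripts. Leaving out 1 library at a time gave adjusted permutation p from 0.00775 to 0.110 for Fth1 over Tfrc, 0.00775 to 0.0917 for Ftl1 and 0.00775 to 0.225 for Slc40a1. Per kilobase of the whole transcript, densities were 58.8 for Fth1, 51.7 for Tfr2, 30.9 for Aco1, 6.98 for Slc40a1, 3.23 for Tfrc, 3.14 for Ireb2, 2.30 for Slc11a2 and 435 for Hamp, since UTRs with few reads enter the length. The 3′UTR ratio of Tfrc was -11.87 with a pseudocount of 0.1.

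Replicate numbers did not pair the livers: deviations of same-numbered libraries correlated between -0.058 and 0.160, over 0.1 in 4 of 21 pairs. With the replicate block, adjusted p was 0.00298 for Hamp, 0.00614 for Tfrc and 0.0378 for Ftl1, 1916 transcripts were called, and the ratios to Tfrc gave 0.0487 (Fth1), 0.0437 (Ftl1) and 0.127 (Slc40a1). With the prefix of the library code in the labels as a block, whose meaning is not given, the values were 0.000476, 0.0200 and 0.0497 for Hamp, Tfrc and Ftl1. Dividing the even counts of CT16 replicate 2 by 2, chosen after seeing the data, left 3 of 10 genes called and 1942 transcripts. Library scaling removes such a factor, so this alternative, counted among the 37, could hardly change a call and does not test the even counts. Depth limits the UTR ratios: Tfrc had 275 reads in its 5′UTR and Ireb2 146 over 14 libraries.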
